A study of Mus musculus with 9 samples.

Results

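Connexins are the proteins of gap junctions. The 6 connexin genes described here cover the glia, meninges, vessels and neurons of the cerebellum: Gjb2, Gjb6 and Gja1 for meninges and astrocytes, Gja4 for vessel walls, Gjc3 for oligodendrocytes and Gjd2 for neurons. They were taken by symbol from the array's annotation, and each was read by the single probe set that carried its symbol alone, so that they stand for 6 of 19147 genes measured and 6 of 38385 probe sets. The proteins are named by their mass: connexin 26 (Gjb2), connexin 30 (Gjb6), connexin 43 (Gja1), connexin 37 (Gja4), connexin 29 (Gjc3) and connexin 36 (Gjd2).

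The arrays held total RNA of mouse cerebellum at postnatal day 5, strain C57BL/6, in 3 groups of 3. SmoA2 mice carried a transgene with the SmoA2 mutation of Smoothened, the receptor component that switches on Sonic hedgehog (Shh) signaling. A fragment of the promoter of ND2 (Neurod2) that is active in granule neuron precursors drove it, so the glia, meninges and vessels that use most of these connexins were not the cells the transgene was designed for. The second mutant group is labelled Smo/Smo only; it was taken as the SmoA1 line of the same promoter design by elimination, and its animal codes have a prefix that the other groups lack, so that source and genotype cannot be told apart. Wild type mice of the same age were the controls. The labels give the tissue only as brain, and do not say whether the 3 animals of a group came from separate litters.

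Gap junctions are channels that join the cytoplasm of touching cells, each built from a hexamer of connexins on either side. In the adult brain, connexin 43 and connexin 30 couple astrocytes, including the Bergmann glia of the cerebellum, and connexin 26 is also strong in the meninges that cover the brain. Connexin 36 forms electrical synapses between neurons, connexin 29 is a protein of myelinating glia, and connexin 37 joins the endothelial cells of arteries.

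The study asked which transcripts differ downstream of the 2 activated forms of Smoothened. Both connexins of the beta class, Gjb2 and Gjb6, were lower in SmoA2 cerebella, at 56.1% and 51.9% of the wild type level, and these were the only calls among the 6 genes in that comparison. Gja1 lay lower in every SmoA2 array but by a small amount that did not pass the test. Gja4, Gjc3 and Gjd2 had values that overlapped in all 3 groups. No member passed the test in Smo/Smo cerebella against wild type.

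Gjb2 and Gjb6 lie side by side on chromosome 14 in GRCm38.p6, Gjb2 at chr14:57098602-57104702 and Gjb6 at chr14:57123301-57133611, both on the minus strand, with 18598 bases between them. Because the 2 neighbours moved together, the 250 bases before the annotated start of each are shown, from RefSeq on GRCm38.p6, at chr14:57104703-57104952 for Gjb2 and chr14:57133612-57133861 for Gjb6, 5′ to 3′ on the minus strand. Capitals mark the GC box GGGCGG on either strand and CCACCCA, the last 7 letters of the Gli consensus GACCACCCA, on either strand.
Gjb2: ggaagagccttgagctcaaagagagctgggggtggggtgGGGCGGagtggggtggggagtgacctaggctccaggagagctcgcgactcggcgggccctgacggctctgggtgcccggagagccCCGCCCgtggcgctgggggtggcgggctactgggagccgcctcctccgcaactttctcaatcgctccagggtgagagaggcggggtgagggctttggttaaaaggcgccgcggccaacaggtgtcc
Gjb6: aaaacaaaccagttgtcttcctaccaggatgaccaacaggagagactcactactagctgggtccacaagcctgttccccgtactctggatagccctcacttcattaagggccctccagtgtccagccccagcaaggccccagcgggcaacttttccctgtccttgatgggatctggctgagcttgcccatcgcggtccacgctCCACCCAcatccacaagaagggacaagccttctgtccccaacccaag

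Gjb2's stretch had 2 GC boxes, starting 211 and 126 bases before the start site, and was 69.2% G and C, above 89.6% of 32851 mouse promoter stretches of that length. Gjb6's stretch had no GC box and 1 CCACCCA, 47 bases before the start site, at 56.8% G and C. A GC box was present in 32.7% of the 32851 stretches and CCACCCA in 8.11%. The whole Gli consensus GACCACCCA, searched on both strands, was in none of the 6 members' stretches and in 0.225% of all. TATAAA was likewise in none of the 6, against 12.4% of all. Of the other 4 members, Gja4 and Gjd2 had 1 GC box each, and Gja1 and Gjc3 had none; the stretch of Gjd2 lies inside the span given for that gene below, before a start site downstream of the outermost one. These matches describe letters in a short window and were not tested for binding.

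All 6 members' log2 intensities are given array by array below, since each probe set has its own scale and only values of the same gene can be compared. Gjb2, which encodes connexin 26, had log2 intensities of 9.08, 9.59 and 9.22 in SmoA2, 9.93, 9.99 and 9.96 in Smo/Smo, and 10.24, 10.07 and 10.09 in wild type. The 3 groups did not overlap: every SmoA2 array lay below every Smo/Smo array, and every Smo/Smo array below every wild type array. The means were 9.30 ± 0.27 in SmoA2, 9.96 ± 0.03 in Smo/Smo and 10.13 ± 0.10 in wild type (SD, n = 3 each).

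The log2 difference of Gjb2 between SmoA2 and wild type was -0.83 ± 0.12 (SE, 95% interval -1.10 to -0.57), a 1.78-fold lower level, with an adjusted p of 0.00701 in limma over all genes. By the size of the fall it was number 43 of 19147 genes. Between SmoA2 and Smo/Smo the difference was -0.66 ± 0.12 (interval -0.93 to -0.40), 1.58-fold lower, with a limma adjusted p of 0.0227. The Smo/Smo mice differed from wild type by -0.17 ± 0.12 (interval -0.44 to 0.10, limma adjusted p = 0.754). The fall against wild type was called with any 1 of the 9 arrays left out, whereas the fall against Smo/Smo lost its call when SmoA2 replicate 1 (adjusted p = 0.0630), SmoA2 replicate 3 (0.0736) or any 1 of the Smo/Smo arrays (0.0744, 0.0921 and 0.0805) was left out in limma.

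Gjb6 encodes connexin 30, the partner of connexin 43 in astrocyte gap junctions. Its log2 intensities were 7.36, 7.98 and 7.82 in SmoA2, 8.31, 8.30 and 8.39 in Smo/Smo, and 8.64, 8.72 and 8.64 in wild type. As with Gjb2, the 3 groups did not overlap, and Smo/Smo stood between SmoA2 and wild type. The means were 7.72 ± 0.32 in SmoA2, 8.33 ± 0.05 in Smo/Smo and 8.67 ± 0.04 in wild type (SD, n = 3 each).

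SmoA2 differed from wild type in Gjb6 by -0.95 ± 0.13 on the log2 scale (SE, 95% interval -1.25 to -0.64), a 1.93-fold lower level with a limma adjusted p of 0.00701. This was number 28 of 19147 genes by the size of the fall. The difference between Smo/Smo and wild type was -0.33 ± 0.13 (interval -0.64 to -0.03), with a limma adjusted p of 0.517. Between SmoA2 and Smo/Smo it was -0.61 ± 0.13 (interval -0.92 to -0.31), just outside the threshold at a limma adjusted p of 0.0507. That last value passed the threshold in 7 of 20 other settings, with adjusted p from 0.0167 to 0.148 over the 20.

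Falls of this kind were uncommon in the series. In SmoA2 against wild type, 2 of the 6 members were called, both lower, while 2.69% of all genes were called in either direction and 1.73% lower. In SmoA2 against Smo/Smo 1 member was called, Gjb2, against 2.56% of all genes (1.54% lower). In Smo/Smo against wild type no member was called, and 0.371% of all genes were. At an unadjusted p under 0.05 in limma, 1 of the 6 members, Gjb6, passed in that comparison. The groups lay apart with no overlap, SmoA2 below wild type, for 3 members (Gjb2, Gjb6 and Gja1), where 10.2% of all genes did so. Smo/Smo lay wholly below wild type for 2 members (Gjb2 and Gjb6), where 8.12% of all genes did, and SmoA2 lay wholly below Smo/Smo for 3 (Gjb2, Gjb6 and Gja1), where 10.1% of all genes did. The F test over the 3 groups called Gjb2 and Gjb6 (limma adjusted p = 0.0118 and 0.0145), against 2.89% of all genes. Because the members were chosen with earlier results of these data known, these shares describe the 6 genes and do not test connexins as a family. In bulk tissue, fewer cells of a type and less RNA per cell cannot be told apart.

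**Figure D1:**
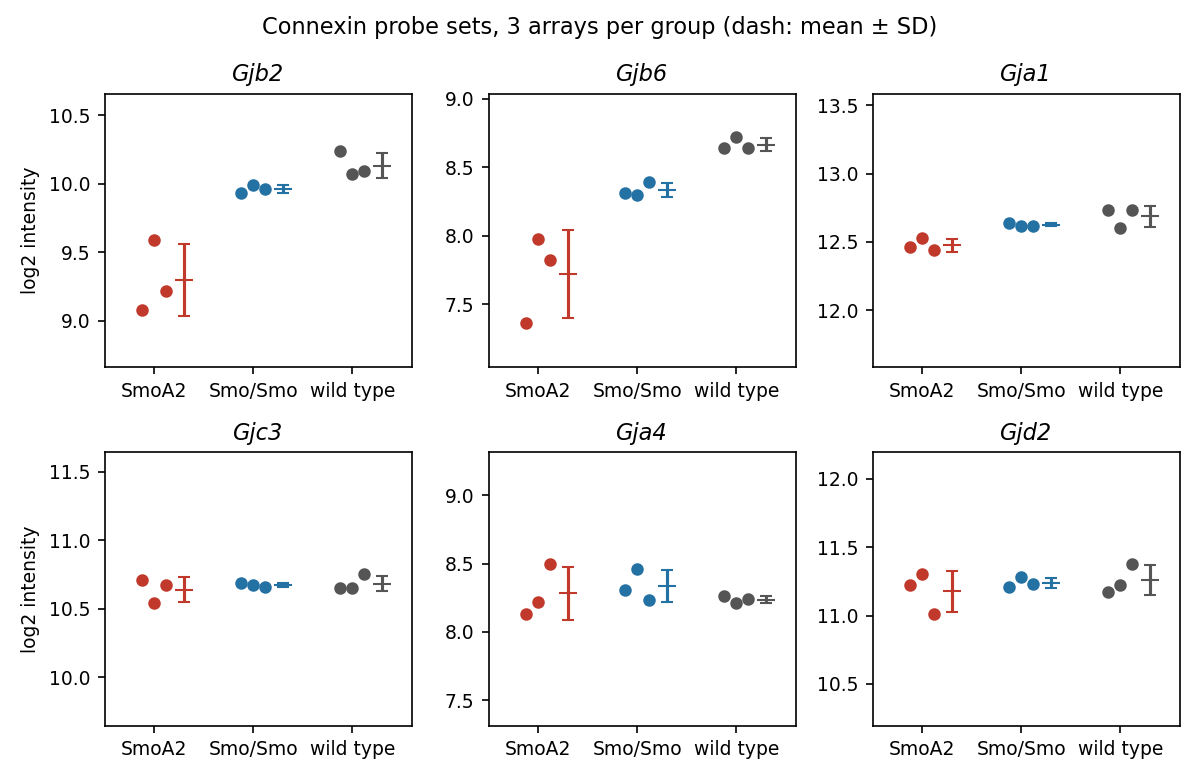
Log2 intensity of the 6 connexin genes in each of the 9 arrays, by group (SmoA2, Smo/Smo, wild type, left to right); points are arrays and the dash with a bar beside them is the group mean with SD, and each panel has its own vertical position on a scale of the same length because levels of different probe sets are not comparable. Gjb2 and Gjb6 step up from SmoA2 through Smo/Smo to wild type without overlap, and Gja4, Gjc3 and Gjd2 overlap in all groups.

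The 2 genes also kept the same order within SmoA2, where replicate 1 was the lowest array and replicate 2 the highest for both. In wild type the highest array was replicate 1 for Gjb2 and replicate 2 for Gjb6. The log2 difference Gjb6 minus Gjb2, which depends on the probes and is read only across arrays, was -1.72, -1.61 and -1.40 in SmoA2, -1.62, -1.69 and -1.57 in Smo/Smo, and -1.60, -1.35 and -1.45 in wild type. It overlapped in all 3 groups, so the ratio of the 2 transcripts did not set the groups apart. The spread between SmoA2 arrays, with SDs of 0.27 and 0.32, was wider than the median SD over all genes in that group, 0.11.

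No such fall was measured in the genes beside them on chromosome 14. Gja3, which encodes another connexin, known from the lens, and starts at -64.1 kb from the start of Gjb2, averaged 6.20 ± 0.06 in SmoA2, 6.25 ± 0.03 in Smo/Smo and 6.22 ± 0.06 in wild type (SD, n = 3 each). Its log2 difference between SmoA2 and wild type was -0.01 ± 0.06 (limma adjusted p = 0.947). A further, dimmer probe set of Gja3 averaged 4.51 in SmoA2, 4.32 in Smo/Smo and 4.40 in wild type. These means lay under 5.57, the upper end of the background range given below. On the other side Cryl1, a crystallin lambda gene 176 kb from Gjb2, had a difference of 0.03 ± 0.09 between SmoA2 and wild type and of 0.22 ± 0.09 between Smo/Smo and wild type (limma adjusted p = 0.905 and 0.508). Ift88, a gene of cilium assembly 325 kb away, had 0.05 ± 0.06 in SmoA2 against wild type (limma adjusted p = 0.753). None of the 8 measured neighbours, 4 on each side, was called by limma in either comparison with wild type, and at an unadjusted p under 0.05 1 passed in each (2410022M11Rik in SmoA2, Cryl1 in Smo/Smo). The largest difference was that of 2410022M11Rik, 0.45 ± 0.16 (limma adjusted p = 0.220), higher in SmoA2; its wild type mean of 5.27 lay within 2.80 to 5.57, the log2 range of Y-linked genes in female mice, which was taken as background, as did all group means of B020004C17Rik (3.79 to 4.01).

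**Figure D2:**
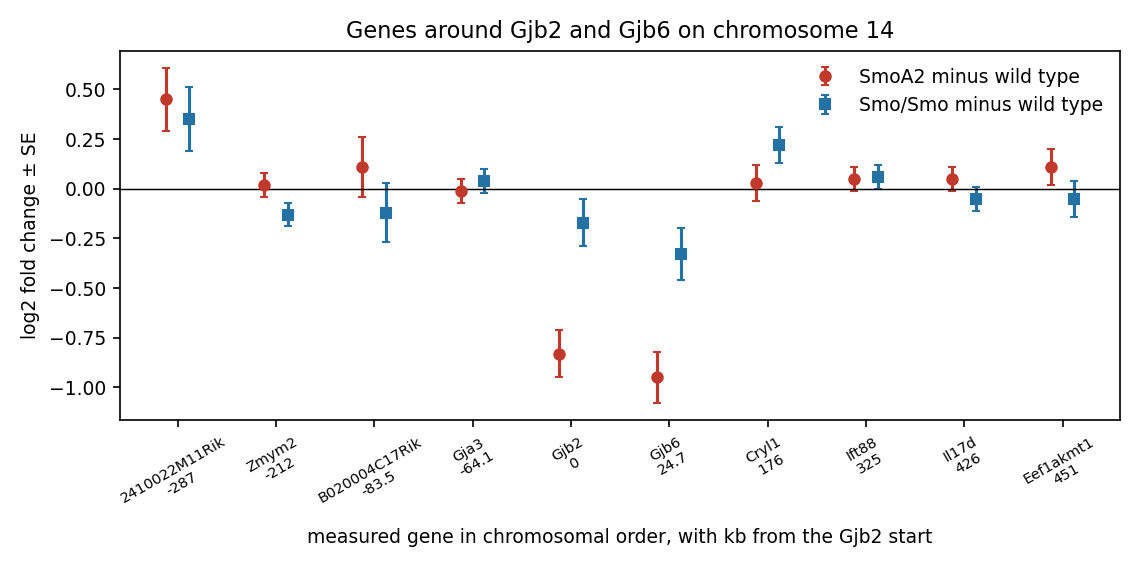
Log2 difference from wild type, with SE, of Gjb2, Gjb6 and the 4 measured genes on each side, in their order along chromosome 14 (not to scale), with the distance in kb from the start of Gjb2 under each name; circles are SmoA2 and squares Smo/Smo. Gjb2 and Gjb6 lie at -0.83 and -0.95 in SmoA2, and the neighbours lie between -0.13 and 0.45 in both mutants.

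Gja1, at chr10:56377300-56390419 in GRCm38.p6, encodes connexin 43, the main gap junction protein of astrocytes, which meningeal cells carry as well. Its log2 intensities were 12.46, 12.53 and 12.44 in SmoA2, 12.64, 12.62 and 12.62 in Smo/Smo, and 12.73, 12.60 and 12.73 in wild type. The SmoA2 arrays lay below all other arrays, while Smo/Smo and wild type overlapped. The means were 12.47 ± 0.05 in SmoA2, 12.63 ± 0.01 in Smo/Smo and 12.69 ± 0.07 in wild type (SD, n = 3 each).

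The difference of Gja1 between SmoA2 and wild type was -0.21 ± 0.06 (SE, 95% interval -0.35 to -0.08), or 0.862-fold (0.787 to 0.945), with a limma adjusted p of 0.108. The interval leaves out a fall as large as that of Gjb2 or Gjb6. Between SmoA2 and Smo/Smo the difference was -0.15 ± 0.06 (limma adjusted p = 0.270), and between Smo/Smo and wild type it was -0.06 ± 0.06 (interval -0.19 to 0.07, limma adjusted p = 0.835). With only genes of a mean log2 of at least 6, or with an intensity trend and robust spread, the SmoA2 value against wild type passed the threshold, at limma adjusted p of 0.0433 and 0.0136, with the same difference of -0.21.

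Gjc3, at chr5:137950992-137963098 in GRCm38.p6, encodes connexin 29, found in oligodendrocytes and Schwann cells. Its log2 intensities were 10.71, 10.54 and 10.67 in SmoA2, 10.69, 10.67 and 10.66 in Smo/Smo, and 10.65, 10.65 and 10.75 in wild type. The ranges of the 3 groups overlapped, with means of 10.64 ± 0.09 in SmoA2, 10.68 ± 0.02 in Smo/Smo and 10.68 ± 0.06 in wild type (SD, n = 3 each). The difference was -0.04 ± 0.06 in SmoA2 against wild type and 0.00 ± 0.06 in Smo/Smo against wild type (limma adjusted p = 0.807 and 0.992). The 95% intervals allowed 0.879-fold to 1.07-fold for SmoA2 and 0.902-fold to 1.10-fold for Smo/Smo, so a change as large as that of Gjb2 lay outside them.

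The oligodendrocyte lineage list, which does not hold Gjc3, stood beside it in the same arrays. Of its 13 measured markers none was called in SmoA2 or in Smo/Smo against wild type in limma, with median log2 differences of -0.11 and 0.00. At an unadjusted p under 0.05, 4 passed in SmoA2 and 3 in Smo/Smo. In SmoA2 against Smo/Smo 1 marker was called, lower in SmoA2. The median there was -0.19, and 7 passed at an unadjusted p under 0.05 in limma. Its summed intensity ranged over 13487 to 14603 in SmoA2, 13849 to 15695 in Smo/Smo and 13555 to 14851 in wild type.

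Gja4, at chr4:127311420-127314039 in GRCm38.p6, encodes connexin 37 of the arterial endothelium. Its log2 intensities were 8.13, 8.22 and 8.50 in SmoA2, 8.31, 8.46 and 8.23 in Smo/Smo, and 8.26, 8.21 and 8.24 in wild type. SmoA2 replicate 1 lay below the narrow wild type range, replicate 2 within it and replicate 3 above, and the Smo/Smo arrays lay within it or above. The means were 8.28 ± 0.20 in SmoA2, 8.33 ± 0.11 in Smo/Smo and 8.24 ± 0.02 in wild type (SD, n = 3 each). The difference from wild type was 0.04 ± 0.10 in SmoA2 and 0.09 ± 0.10 in Smo/Smo (limma adjusted p = 0.888 and 0.865), and for SmoA2 the 95% interval ran from 0.882-fold to 1.20-fold. SmoA2 replicate 3 decided the sign of the SmoA2 value, which was -0.07 without it.

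Gjd2, at chr2:114009601-114014378 in GRCm38.p6, encodes connexin 36, the protein of electrical synapses, which in the mature cerebellum join interneurons and Golgi cells. Its log2 intensities were 11.22, 11.30 and 11.01 in SmoA2, 11.21, 11.28 and 11.23 in Smo/Smo, and 11.17, 11.22 and 11.38 in wild type. The lowest value was SmoA2 replicate 3 and the highest wild type replicate 3, and the other 7 arrays lay within 11.17 to 11.30. The means were 11.18 ± 0.15 in SmoA2, 11.24 ± 0.04 in Smo/Smo and 11.26 ± 0.11 in wild type (SD, n = 3 each). The difference was -0.08 ± 0.09 in SmoA2 against wild type (0.827-fold to 1.08-fold, limma adjusted p = 0.721) and -0.02 ± 0.09 in Smo/Smo against wild type (limma adjusted p = 0.975). With both replicates 3 left out, the SmoA2 value was 0.06.

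Of 9 measured GABAergic interneuron markers, 4 were lower in SmoA2 against wild type (Pax2, Gad1, Slc32a1 and Ptf1a) and none higher, with a median log2 difference of -0.37. Pax2, the transcription factor of interneuron precursors, was at 7.65, 7.54 and 7.77 in SmoA2 against 8.36, 8.43 and 8.42 in wild type, a difference of -0.75 ± 0.07 (limma adjusted p = 8.00e-04). Gad1, which makes the transmitter GABA, differed by -0.51 ± 0.08 (limma adjusted p = 0.00857). The summed intensity of the list was 5632 to 6291 in SmoA2, 7463 to 7853 in Smo/Smo and 7471 to 7809 in wild type. Among 7 Purkinje cell markers, 4 were lower in SmoA2 and none higher, with a median of -0.45, among them the transcription factor genes Lhx5 at -0.66 and Rora at -0.45 and the Reelin adaptor gene Dab1 at -0.50. The part of these cells in the values of Gjd2 was not tested. In Smo/Smo none of either list was called in limma, with medians of 0.04 and -0.07, and 1 of each passed at an unadjusted p under 0.05.

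The other connexins analysed were 9 genes. Only Gja5 was called among the 9, and in the opposite direction to Gjb2 and Gjb6. Gja5 encodes a second connexin of arterial endothelium. Its log2 intensities were 6.86, 6.96 and 6.70 in SmoA2, 6.51, 6.62 and 6.66 in Smo/Smo, and 6.42, 6.41 and 6.25 in wild type. All SmoA2 arrays were above all wild type arrays, as in 8.89% of all genes, and all Smo/Smo arrays above all wild type arrays, as in 7.82%.

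Gja5 differed between SmoA2 and wild type by 0.48 ± 0.08 (SE, 95% interval 0.29 to 0.67), a 1.39-fold higher level with a limma adjusted p of 0.0192. The background for such a rise was 0.961% of all genes called higher. Between Smo/Smo and wild type it differed by 0.24 ± 0.08 (limma adjusted p = 0.454). The SmoA2 call was lost in 6 of 20 other settings, with adjusted p up to 0.0686 in limma: when any 1 of the wild type arrays, SmoA2 replicate 1 or SmoA2 replicate 2 was left out, and when only the 2 groups were fitted.

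The levels of Gja6, Gja10, Gjb1, Gjb5 and Gjd4 lay under 5.57, the highest log2 value that Y-linked genes reached in female mice, and so did that of the pannexin Panx3. Differences of these 6 genes are therefore near the background of the array. Gjc1, which encodes a connexin of neurons and vessel walls, averaged 11.23 ± 0.09 in SmoA2, 11.16 ± 0.08 in Smo/Smo and 11.11 ± 0.03 in wild type (SD, n = 3 each), with a limma adjusted p of 0.468 for SmoA2 against wild type. The median log2 difference of the 9 was 0.12 in SmoA2 and 0.05 in Smo/Smo against wild type, where that of all genes was 0.006 in each. For the 6 members the medians were -0.15 and -0.04.

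None of the 3 pannexins, which form channels of a related fold, and none of 9 measured partners of gap junctions was called in limma in any of the 3 comparisons. At an unadjusted p under 0.05 no pannexin passed in any of them, and 2 partners did in SmoA2 against wild type, 3 in Smo/Smo against wild type and 2 in SmoA2 against Smo/Smo. The partners comprise scaffold and trafficking genes such as Tjp1, which encodes the ZO-1 protein that binds connexin 43, at -0.09 ± 0.08 in SmoA2 against wild type (limma adjusted p = 0.659). The widest difference in that list was in Ccn3, a secreted protein gene that binds connexin 43, at 7.96, 9.50 and 8.29 in SmoA2, 9.07, 8.58 and 8.85 in Smo/Smo, and 9.61, 9.61 and 9.62 in wild type. All mutant arrays lay below all wild type arrays, but the SmoA2 arrays spread so far that its difference, -1.03 ± 0.33, had a limma adjusted p of 0.170. Ccn3 was named after its values were seen.

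**Figure D3:**
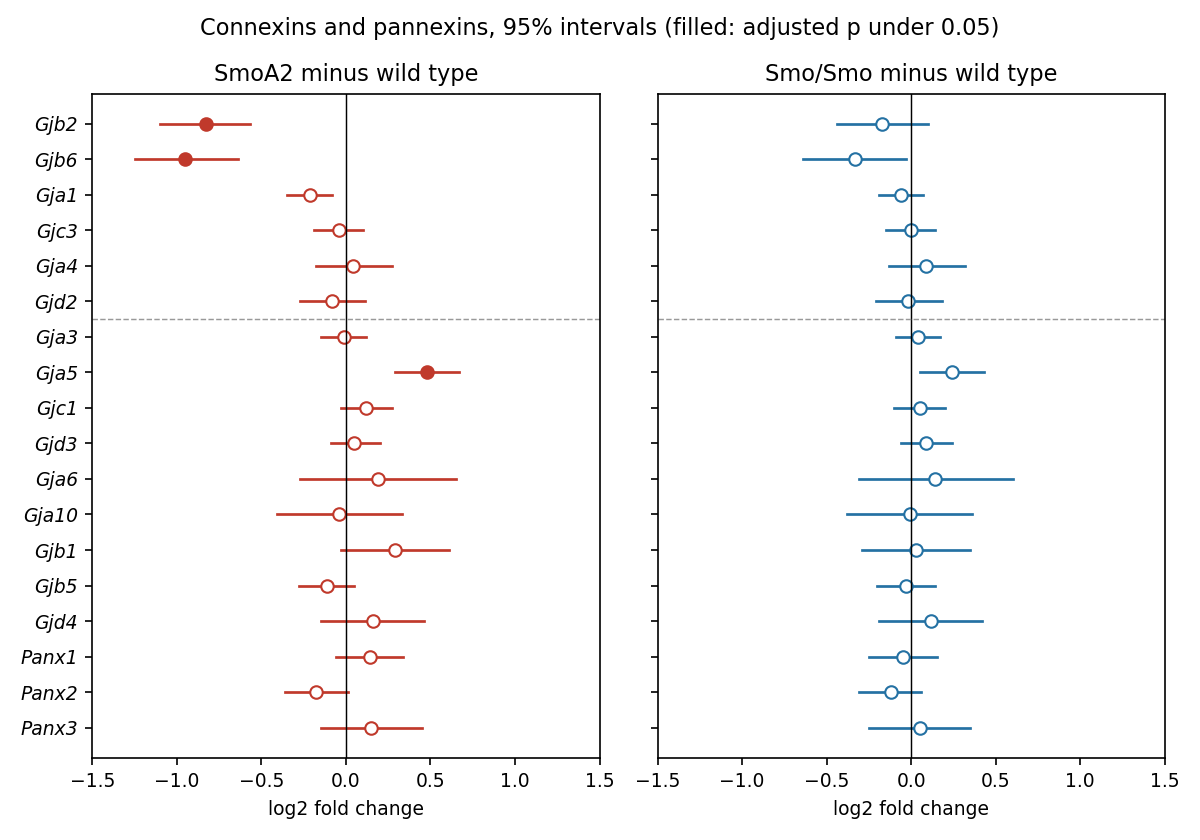
Log2 difference from wild type, with 95% intervals, of the 6 members (above the dashed line) and of the other connexins and the pannexins below it, for SmoA2 in the left panel and Smo/Smo in the right; filled points are called genes. Gjb2, Gjb6 and Gja5 are the called genes, all in SmoA2, at -0.83, -0.95 and 0.48.

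The genes whose profiles over the 9 arrays were closest to Gjb2 were found by the root mean square difference of log2 values, each centred on the gene's own mean. Gjb2 itself varied by 0.384 about its mean on this measure. The closest were Nhlrc4 at 0.0857, Lepr (the leptin receptor) at 0.0930, Vtn (vitronectin, an adhesion protein) at 0.0962 and Nphs1 (nephrin) at 0.0980. For Gjb6, which varied by 0.421, they were Slc6a12, a transporter of betaine and GABA, at 0.115, Gjb2 at 0.121, Nhlrc4 at 0.123 and Vtn at 0.131. Gjb2 was thus the second closest to Gjb6 of all genes with a full symbol. These 9 arrays share the groups, so the likeness holds the group difference as well as the spread within groups.

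Lepr had log2 intensities of 7.86, 8.25 and 7.65 in SmoA2, 8.56, 8.60 and 8.65 in Smo/Smo, and 8.79, 8.75 and 8.68 in wild type. It differed by -0.82 ± 0.13 between SmoA2 and wild type (limma adjusted p = 0.0116). Vtn, at 10.26, 10.69 and 10.50 in SmoA2, 11.07, 11.08 and 11.08 in Smo/Smo, and 11.15, 11.24 and 11.13 in wild type, differed by -0.69 ± 0.10 (limma adjusted p = 0.00699). In both, SmoA2 replicate 2 was the highest SmoA2 array, as in Gjb2 and Gjb6. The closest genes were chosen by profile over these same arrays, so this order and their calls follow in part from the choice. Nphs1 differed by -0.76 ± 0.09 and Slc6a12 by -0.88 ± 0.18 (limma adjusted p = 0.00232 and 0.0341). Nhlrc4, with means of 4.72 in SmoA2, 5.40 in Smo/Smo and 5.54 in wild type, lay within the range of the Y-linked background.

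**Figure D4:**
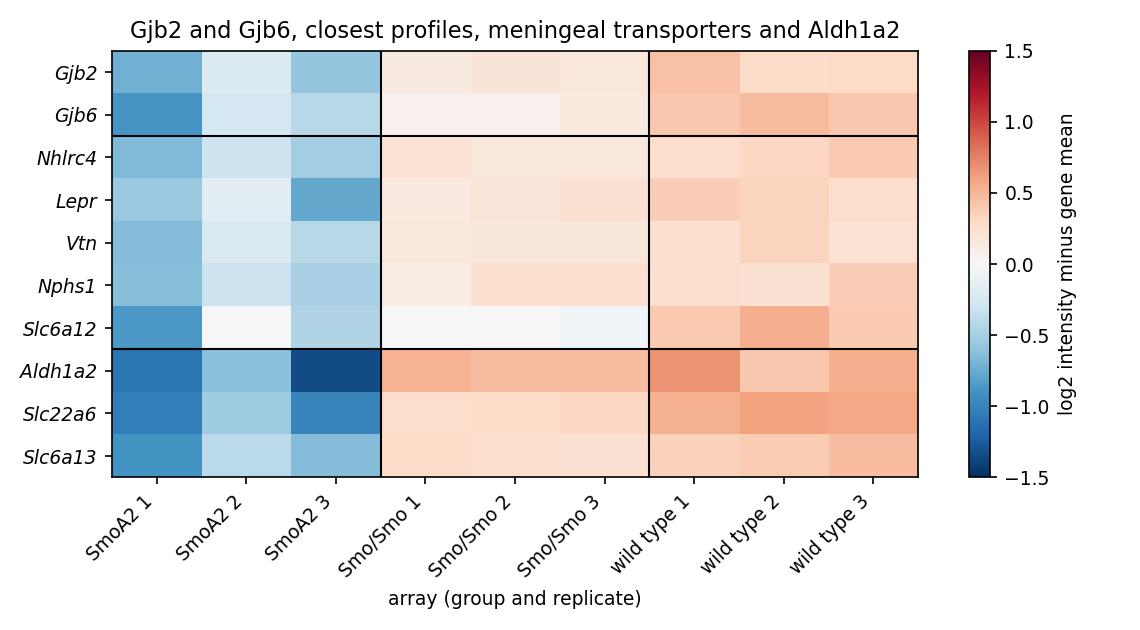
Log2 intensity minus the gene's own mean, as colour (blue below, red above), in the 9 arrays (columns, in the order SmoA2, Smo/Smo, wild type) for Gjb2 and Gjb6, the genes closest to them in profile, and 3 meningeal genes (rows). In all 10 genes replicate 2 is the palest of the SmoA2 columns, and no wild type value lies below the gene's mean. The genes closest in profile were chosen over these same arrays, so their likeness is part of the choice.

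Of 19 measured markers of meninges and fibroblasts, 9 were lower in SmoA2 against wild type and none higher, with a median log2 difference of -0.46. In Smo/Smo against wild type none was called in limma, 5 passed at an unadjusted p under 0.05, and the median was -0.13. The called genes included the meningeal transporter genes Slc22a6 and Slc6a13 and the retinoic acid enzyme gene Aldh1a2. Slc22a6 was at 7.99, 8.50 and 8.04 in SmoA2, 9.29, 9.31 and 9.34 in Smo/Smo, and 9.57, 9.63 and 9.61 in wild type, 2.68-fold lower in SmoA2 than in wild type (limma adjusted p = 4.37e-04). Aldh1a2 was 2.96-fold lower and Slc6a13 2.07-fold lower (limma adjusted p = 0.00114 and 0.00149). In all 3 genes the SmoA2 arrays lay below the rest, with SmoA2 replicate 2 the highest of them, as in Gjb2 and Gjb6.

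The mean log2 of the meningeal list was 9.18, 9.54 and 9.32 in SmoA2, 9.74, 9.72 and 9.75 in Smo/Smo, and 9.84, 9.83 and 9.81 in wild type, in the same order of arrays within SmoA2 as Gjb2. Its summed intensity was 27594 to 30674 in SmoA2, 32364 to 32913 in Smo/Smo and 32589 to 33227 in wild type, and no marker was at 0. The list mean differed by -0.48 between SmoA2 and wild type. The change of Gjb2 minus that of the list mean was -0.35 on the log2 scale and that of Gjb6 was -0.46, while that of Gja1 was 0.27. Single markers of the list ran from -1.57 to 0.42, so that all 3 connexins lay within its spread. The part of the meninges in the falls of Gjb2 and Gjb6 was not tested.

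Of 19 measured markers of Bergmann glia and astrocytes, 3 were lower in SmoA2 against wild type and none higher, with a median of -0.12, and in Smo/Smo none was called in limma, with a median of 0.01 and 3 at an unadjusted p under 0.05. Gdf10, which encodes a growth factor made by Bergmann glia, was at 11.12, 11.09 and 11.22 in SmoA2, 11.65, 11.72 and 11.71 in Smo/Smo, and 11.77, 11.66 and 11.79 in wild type, a difference of -0.59 ± 0.06 between SmoA2 and wild type (limma adjusted p = 0.00156). Tnc, a matrix protein gene of these glia, and Id4 differed by -0.37 ± 0.07 and -0.28 ± 0.06 (limma adjusted p = 0.0206 and 0.0342). The list mean was 10.93, 10.87 and 10.94 in SmoA2, 11.18, 11.14 and 11.10 in Smo/Smo, and 11.07, 11.09 and 11.14 in wild type, so that the SmoA2 arrays were lower than all others while replicate 2, the highest for Gjb2, was the lowest of them here. Its summed intensity was 61954 to 63224 in SmoA2, 68474 to 68925 in Smo/Smo and 66982 to 69930 in wild type. The list mean differed by -0.19 between SmoA2 and wild type. The change of Gja1 minus that of the list mean was -0.03, and for Gjb2 and Gjb6 it was -0.65 and -0.76. Single markers of this list ran from -0.85 to 0.15. Gjb2 (-0.83) and Gja1 (-0.21) lay within that range and Gjb6 (-0.95) below it. The marker at -0.85 was not called, and the largest called fall was that of Gdf10 at -0.59, smaller than those of Gjb2 and Gjb6. The part of astrocytes in these values was not tested.

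**Figure D5:**
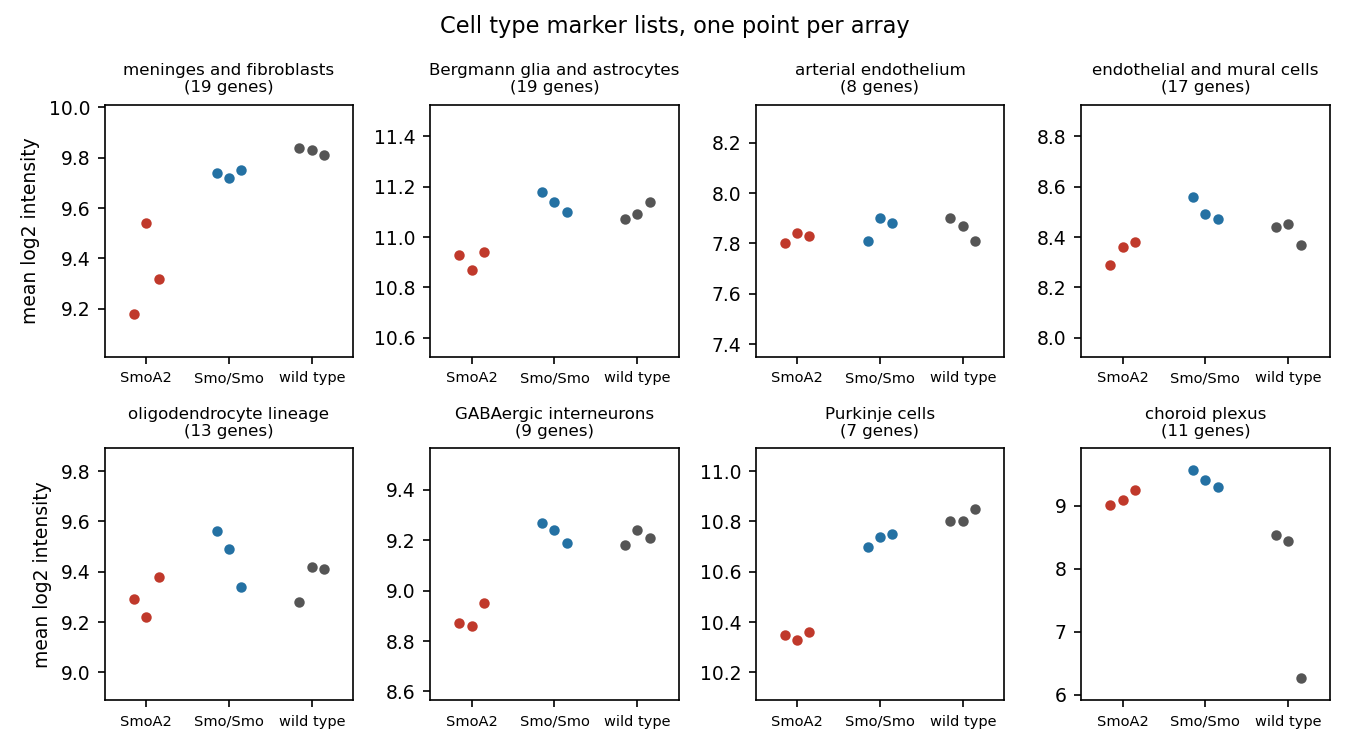
Mean log2 intensity of marker lists in each of the 9 arrays, by group (SmoA2, Smo/Smo, wild type), points being arrays; the panels share 1 length of scale except that of the choroid plexus, which is longer. The meningeal list lies at 9.18 to 9.54 in SmoA2, under 9.72 to 9.75 in Smo/Smo and 9.81 to 9.84 in wild type. The choroid plexus list is lower in all wild type arrays than in all mutant arrays and drops to 6.26 in wild type replicate 3.

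Vessel markers stand beside Gja4 and Gja5. Of 17 endothelial and mural markers, Tek and Kdr, which encode receptors of angiopoietin and of vascular endothelial growth factor, were lower in SmoA2 against wild type, at -0.29 ± 0.05 and -0.30 ± 0.06 (limma adjusted p = 0.0267 and 0.0401), and the median was -0.07. Of 8 arterial markers, which include Gja5 itself, Efnb2 was lower at -0.40 ± 0.08 (limma adjusted p = 0.0252) and Gja5 was higher. The summed intensity of the endothelial and mural list was 8745 to 9103 in SmoA2, 10564 to 10998 in Smo/Smo and 9769 to 10020 in wild type, with no overlap between the groups. Its mean log2, however, overlapped between SmoA2 (8.29 to 8.38) and wild type (8.37 to 8.45), with Smo/Smo above both at 8.47 to 8.56. The summed intensity of the arterial list overlapped in all groups, at 7221 to 7955 in SmoA2, 7600 to 7913 in Smo/Smo and 7794 to 8008 in wild type. The part of vessel cells in the values of Gja4 and Gja5 was not tested.

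Wild type replicate 3 stood apart from all other arrays in markers of the choroid plexus. The list mean was 9.01 to 9.26 in SmoA2, 9.30 to 9.57 in Smo/Smo, and 8.54, 8.45 and 6.26 in wild type. All wild type arrays thus lay below all mutant arrays, also without replicate 3. The part of choroid plexus tissue in the group differences was not tested. Ttr, the leading gene of that tissue, was at 11.74, 11.84 and 11.93 in SmoA2, 12.14, 12.03 and 12.04 in Smo/Smo, and 11.39, 11.26 and 4.95 in wild type. None of the 11 choroid plexus markers was called in limma in either comparison with wild type, with medians of 1.43 in SmoA2 and 1.72 in Smo/Smo, and 10 and 9 of them passed at an unadjusted p under 0.05. Gjb2 in wild type replicate 3 was 10.09 and Gjb6 was 8.64, within the range of the other wild type arrays. The sexes called from Xist and Y-linked genes were 2 males and 1 female in SmoA2, 2 males and 1 female in Smo/Smo, and 1 male and 2 females in wild type, and with sex as a covariate Gjb2 and Gjb6 kept their calls against wild type in SmoA2. Of 7 measured Shh target genes, 6 were called higher in SmoA2 against wild type in limma, with a median of 0.50. In Smo/Smo none was called, with a median of 0.08 and 3 at an unadjusted p under 0.05. The gene lists were chosen with earlier results known, so these counts do not test the labels or the identity of Smo/Smo. Atoh1, which marks granule neuron progenitors of the cerebellum, was at 10.57, 10.37 and 10.52 in SmoA2, 9.80, 9.72 and 9.84 in Smo/Smo, and 9.76, 9.63 and 9.61 in wild type, well above background in all 9 arrays. Of 9 granule neuron progenitor markers 4 were called higher in SmoA2, with a median of 0.17. All of these but Atoh1 are also among the Shh targets counted above. Of 10 granule neuron markers only Grin2c, a glutamate receptor gene, was called higher in SmoA2, and it was higher in Smo/Smo too. None was called lower, but 8 of the 10 lay below 0 in SmoA2 against wild type, with a median of -0.04. At an unadjusted p under 0.05 in limma, 4 passed there. In Smo/Smo against wild type the median was 0.02, and 1 passed. None of 10 microglia and macrophage markers was called in limma against wild type, with medians of 0.22 in SmoA2 and -0.23 in Smo/Smo, nor any of 3 erythrocyte markers. At an unadjusted p under 0.05, 3 microglia and macrophage markers passed in SmoA2, 2 in Smo/Smo and no erythrocyte marker in either. In SmoA2 against Smo/Smo 2 of the microglia and macrophage markers were called, both higher in SmoA2. Their list had a median of 0.42 there, and 8 passed at an unadjusted p under 0.05 in limma. Array medians were 91.0 to 95.1 in intensity, and arrays have no read depth, so that the 3 per group limit the precision.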

How the data were processed

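RNA of 9 cerebella, 3 per group, was measured on 1 custom Affymetrix array each. The deposited values are probe set intensity on a linear scale, which the authors summarised with RMA, per the submitters' processing notes; no version is given. The log2 was taken before every test. Of 38385 probe sets, 24478 carried 1 gene symbol, 65 several and 13842 none in the platform annotation. Where several named 1 gene, the brightest by mean log2 was used, which left 19147 genes. Replicates were numbered in accession order.

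One model of all 9 arrays was fitted with limma 3.58.1 in R 4.3.3 (lmFit, eBayes), and p-values were adjusted by Benjamini-Hochberg over all genes. A gene was called under 0.05 (adjusted p). Errors of differences are standard errors of that fit, with 95% intervals. P-values measure the spread between these animals, whose litters are not given. The script was tested on simulated data. Promoter stretches and positions came from RefSeq on GRCm38.p6, read with Python 3.11.15, and figures were drawn with matplotlib 3.10.9. The members and gene lists were chosen with earlier results of these data known.

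Named in the text are all members, called genes of the connexin, pannexin and partner lists, Gja3, Ttr, up to 3 called markers per list with the smallest p, and the 4 genes closest in profile to each member that passed the F test. Ptf1a, Cryl1, Ift88, 2410022M11Rik, Gjc1, Tjp1, Ccn3 and the genes near background were named after their values were seen. Alternatives changed the probe set rule, filter, normalization, variance model, array weights, samples, offset and sex term.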

Additional observations from a re-analysis of the deposited data

Results flagged for a closer look

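SmoA2 and Smo/Smo mice share the wild type controls, and the difference between their effects is the direct comparison of SmoA2 with Smo/Smo in limma. Among the genes named in the text it passed the threshold for 21. Among the members it did so for Gjb2 only (-0.66 on the log2 scale, lower in SmoA2). Of the genes closest to Gjb2 and Gjb6 in profile, Lepr differed by -0.68, Vtn by -0.60 and Nphs1 by -0.68. Nhlrc4 differed by -0.68 as well, but its levels lay within the range of the Y-linked background, so the size of its difference is uncertain. The meningeal genes differed by -1.13 for Slc22a6, -1.51 for Aldh1a2 and -0.91 for Slc6a13. The glial genes Gdf10 and Tnc differed by -0.55 and -0.32, and the vessel genes Tek and Kdr by -0.36 each. Among neuronal genes Pax2 differed by -0.59, Gad1 by -0.46, Slc32a1, the vesicular GABA transporter, by -0.50, Ptf1a, a factor of GABAergic precursors, by -0.38, and the Purkinje cell genes Dab1 and Rora by -0.43 and -0.34. Higher in SmoA2 than in Smo/Smo were Atoh1, a factor of granule neuron progenitors, by 0.70, and the Shh targets Gli1 by 0.42 and Cdk6 by 0.57. Gjb6, at -0.61, was just outside the threshold and is not among the 21.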

How the results depend on the processing

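The fall of Gjb2 and of Gjb6 in SmoA2 against wild type was called in 19 of 20 other settings each. With any 1 array left out it ranged from -0.98 to -0.73 for Gjb2 and from -1.08 to -0.77 for Gjb6. With replicate 3 of SmoA2 and of wild type both left out, which leaves 7 arrays, the differences were -0.82 (limma adjusted p = 0.0779) and -1.01 (0.0648). Against Smo/Smo, Gjb2 lost its call with both left out (-0.62), with only the 2 groups fitted (-0.66) and in 5 of 9 cases of a single array left out (-0.81 to -0.55 over all 9, the -0.81 being called). Gjb6 gained one there with a mean log2 of at least 6, with the trend and robust model and with sex as a covariate (-0.61 in each), with array weights (-0.62), with 16 added to the intensity (-0.58) and in 2 of 9 cases of a single array left out (-0.74 to -0.43). Gja1 in SmoA2 against wild type passed with the filter and with the trend model (-0.21 in both).

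Values near 0 changed sign. Gja4 in SmoA2 was -0.02 with array weights and -0.06 with both replicates 3 left out against wild type (-0.07 to 0.12 with single arrays left out), and -0.16 to 0.03 against Smo/Smo. Gjc3 in SmoA2 ran from -0.08 to 0.01 against wild type and from -0.07 to 0.01 against Smo/Smo with single arrays left out. Gjd2 in SmoA2 was 0.06 against wild type and 0.02 against Smo/Smo with both left out (-0.14 to 0.00 and -0.12 to 0.02 with single arrays left out), and in Smo/Smo against wild type 0.02 with array weights, 0.04 with both left out and -0.06 to 0.04 with single arrays left out.

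The 515 calls of SmoA2 against wild type became 776 with the filter, 215 with both left out, 235 with only 2 groups and 234 to 445 with single arrays left out. The 71 of Smo/Smo against wild type became 162 with array weights, 38 with both left out, 42 with sex, 42 with only 2 groups and 21 to 65 with single arrays left out. The 490 of SmoA2 against Smo/Smo became 809 with the filter, 795 with the trend model, 296 with both left out, 231 with only 2 groups and 170 to 467 with single arrays left out. Fewer arrays and fewer genes tested are part of these settings; the cause of the other shifts was not tested. Sex was added as a setting after the data were seen. No paired analysis was possible because the labels give no replicate numbers shared between groups, only animal codes.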
